A study of Homo sapiens with 6 samples.

Results

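Interferon-stimulated genes are the genes that cells switch on when an interferon binds its receptor. A list of 44 was followed in HCT116, a human colorectal cancer cell line, after an siRNA against POU2F1 (siPOU2F1, 3 libraries labelled POU2F1 knockdown) or a control siRNA (sicontrol, 3 libraries labelled WT). The members were chosen by name, as rows whose symbol equalled a listed gene, and all 44 were found among 20474 annotated genes. The list was drawn up with earlier results of these data known, so shares set beside those of all genes are descriptions, not tests. POU2F1 encodes OCT1, a transcription factor that binds the DNA octamer. RNA was taken 48 h after transfection, and polyA libraries were made from 2 µg of total RNA. The labels name no interferon treatment in either group, and the sources used here give no siRNA sequences. Nothing in the labels says that the 3 libraries of a group came from separate cultures, so the p-values measure how far these libraries vary, which may be technical variation.

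Type I and type III interferons signal through receptor-bound JAK kinases to a complex with STAT2 and IRF9, which binds the interferon-stimulated response element (ISRE) in target promoters. Interferon gamma acts through another element, the GAS. The induced genes include sensors of viral RNA, enzymes that degrade or sequester it, the ubiquitin-like modifier ISG15, membrane proteins that block viral entry or release, and the factors of the pathway itself. Many are also transcribed at a low level in unstimulated epithelial cells.

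POU2F1 was lowered, not removed. It measured 1.87, 1.69 and 1.73 FPKM in siPOU2F1 replicates 1 to 3, against 4.16, 3.60 and 4.26 FPKM in sicontrol replicates 1 to 3 (FPKM, fragments scaled to transcript length and library size). On average siPOU2F1 kept 44% of the sicontrol level, a log2 fold change of -0.99 (SE 0.14; limma, adjusted p = 0.0333). By permutation of the 6 libraries (exact, two-sided) p was 0.1, the lowest value possible with 3 against 3. When sicontrol replicate 1, 2 or 3 or siPOU2F1 replicate 1 or 2 was left out, the adjusted p of POU2F1 was above the threshold, between 0.114 and 0.22. The depth of the libraries is unknown in absolute terms, since FPKM carries no read numbers, and the steps between low values put it at 0.779 to 0.973 of that of sicontrol replicate 1. Of the 7 epithelial markers listed, 6 were tested and 0 were called, though their summed level was 3732 to 5161 FPKM in siPOU2F1 libraries and 2700.1 to 3623 FPKM in sicontrol libraries. The keratin KRT8 had 1978, 1925 and 1149.8 FPKM in siPOU2F1 and 693, 707 and 1170 FPKM in sicontrol, so that siPOU2F1 replicates 1 and 2 stood above the rest. KRT18 was higher in every siPOU2F1 library, with 2185, 2096 and 1788 FPKM in siPOU2F1 and 1306, 1271 and 1543 FPKM in sicontrol (limma, adjusted p = 0.087). Without siPOU2F1 replicate 3, KRT8, KRT18 and VIL1 were called higher (limma, adjusted p = 0.0159, 0.0148 and 0.037), as were 9.29% of all tested genes. EPCAM, CDH1 and KRT19 were not called there (limma, adjusted p = 0.918, 0.184 and 0.118), and EPCAM had a log2 fold change of -0.01. COL1A1, the only 1 of 6 fibroblast markers listed that was tested, was also called higher in that fit (0.60, limma, adjusted p = 0.0361). Of the others, COL3A1 and DCN were listed at 0 in all 6 libraries, and COL1A2 and LUM in every siPOU2F1 library. PDGFRB averaged 0.178 FPKM in siPOU2F1 and 0.149 FPKM in sicontrol. The part of these markers in the results was not tested. The 7 leukocyte markers summed to 6.93 to 8.21 FPKM in siPOU2F1 and 6.63 to 8.35 FPKM in sicontrol. CD68, the only 1 of them tested, averaged 5.54 FPKM in siPOU2F1 and 5.42 FPKM in sicontrol. PTPRC, the pan-leukocyte antigen CD45, was the only 1 listed at 0 in all 6 libraries.

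No interferon-stimulated gene passed the test, but values below those of sicontrol prevailed. Of the 44 members, 28 reached a mean of 1 FPKM across all libraries and were tested, and 16 were below that level. IFIT3, OASL, USP18 and HERC6 averaged 0.814, 0.985, 0.858 and 0.960 FPKM in siPOU2F1 and reached the level only through sicontrol. They could enter the tested set only with a lower mean in siPOU2F1, and they are included in the counts below. The limma fit called 0 of the 28 lower and 0 higher at an adjusted p under 0.05, where 0.845% and 0.397% of all 11831 tested genes were called. At an unadjusted p under 0.05, 10 members had lower and 0 had higher values in siPOU2F1, against 9.90% and 8.22% of all tested genes. The 10 were OAS3, ISG15, HERC6, MX1, MX2, RIGI, STAT2, IRF1, PARP9 and PARP14. The log2 fold change was negative for 22 of the 28 (78.6%) and for 51.5% of all tested genes. Its median was -0.31 over the members and -0.01 over all tested genes. In these bulk libraries, fewer cells expressing a gene and less RNA per cell cannot be told apart.

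The number of members called depended on siPOU2F1 replicate 3. All 3 siPOU2F1 libraries lay below all 3 sicontrol libraries for 12 of the 28 tested members (42.9%), a pattern shown by 12% of all tested genes. The opposite pattern was seen in 0 members and in 11.3% of all tested genes. Without siPOU2F1 replicate 3, 11 members were called lower (39.3%, against 15.7% of all tested genes) and 1 was called higher (3.57%, against 9.29%). The 11 were IFIT5, OAS3, ISG15, HERC6, MX2, RIGI, IRF1, IFI35, PARP9, PARP14 and DTX3L, and the 1 was IFITM1. That fit rests on 2 siPOU2F1 libraries, whose values can be very close, as for IRF1 (27.1 and 27.3 FPKM). The SE of IRF1 was 0.28 with all libraries and 0.13 in that fit. Over all tested genes it called 1855 lower, where the fit of all 6 libraries called 100. Its adjusted p-values, here and below, are therefore no separate support for a difference. Leaving out any other single library gave 0 member calls, but those fits called only 0 to 5 genes lower and 0 to 4 higher among all 11831 tested. Over all tested genes, the deviations of siPOU2F1 replicate 3 from its group mean correlated most with those of sicontrol replicate 2 (r = 0.643, across genes, which are not independent replicates), the highest of all pairs across groups. The labels name no batch, and its part in these counts was not tested.

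**Figure D1:**
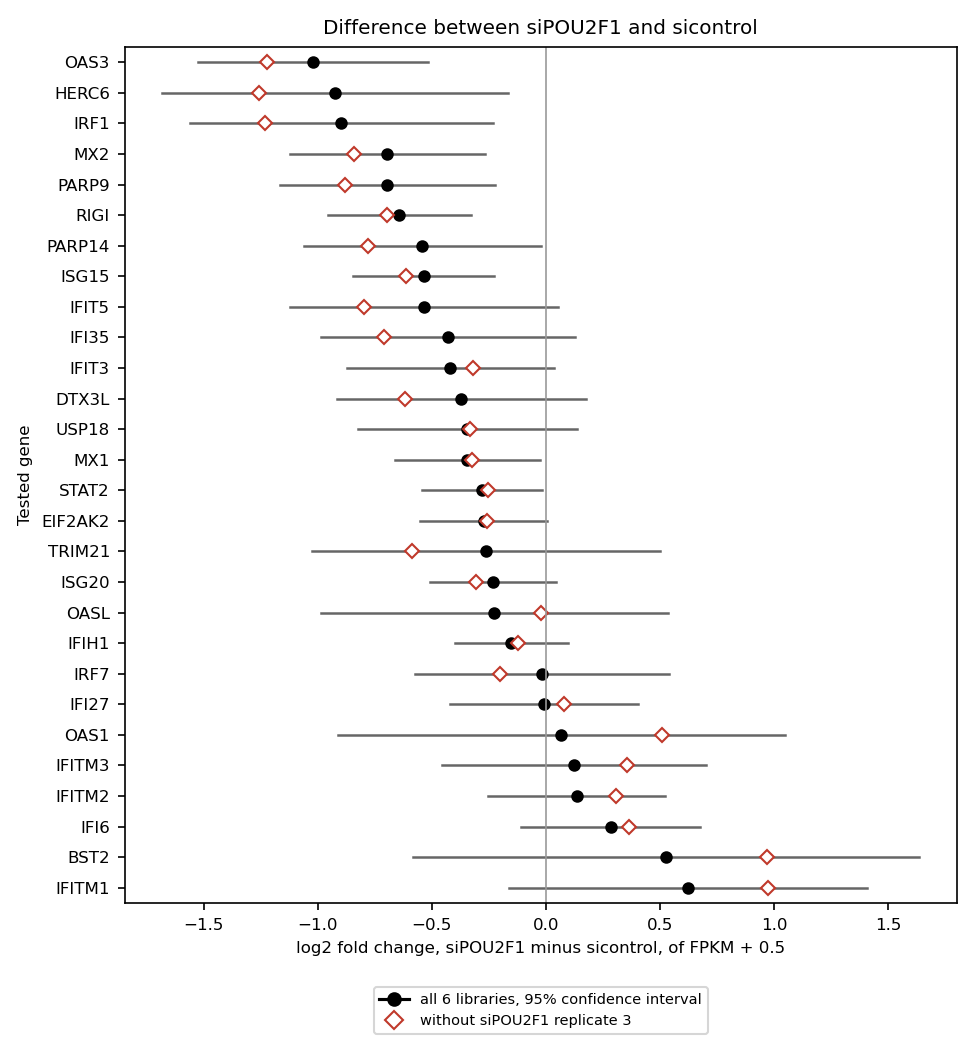
Log2 fold changes of the 28 tested interferon-stimulated genes (x axis, siPOU2F1 minus sicontrol, of FPKM + 0.5), with black points and bars for the fit of all 6 libraries and its 95% confidence interval and open diamonds for the fit without siPOU2F1 replicate 3. Values run from -1.02 for OAS3 to 0.62 for IFITM1, and 22 of the 28 black points lie left of 0.

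Because the list is defined by a response and not by a sequence, its promoters were read for the elements named above. RefSeq promoter windows (GRCh38.p14, 250 bases before to 50 bases after each annotated start) were found for 37 of the 44 members. The ISRE core, 2 GAAA words with any 2 bases between them, was searched on both strands and was present in 26 of the 37 (70.3%), against 4.38% of all 27305 genes with a window. The GAS core, TTCNNNGAA, was present in 11 of 37 (29.7%), against 9.38% of all genes. It reads alike on both strands, and it can overlap an ISRE core. The octamer ATGCAAAT, the DNA word bound by OCT1, was found on either strand in 0 of the 37 members, against 2.19% of all genes. No match means only that these letters are not in these windows. The windows of 5 members are shown 5′ to 3′ along the gene, with the ISRE core in capitals. OAS3 and ISG15 are shown because their values were lower in every siPOU2F1 library, DTX3L because it shares its start region with PARP9, and IFITM1 and BST2 because their values went the other way. In ISG15 and BST2 the cores overlap and run together. The windows lie at chr12:112938224-112938523 (OAS3, plus strand), chr1:1013247-1013546 (ISG15, plus strand), chr3:122564088-122564387 (DTX3L, plus strand), chr11:313790-314089 (IFITM1, plus strand) and chr19:17405581-17405880 (BST2, minus strand).
OAS3: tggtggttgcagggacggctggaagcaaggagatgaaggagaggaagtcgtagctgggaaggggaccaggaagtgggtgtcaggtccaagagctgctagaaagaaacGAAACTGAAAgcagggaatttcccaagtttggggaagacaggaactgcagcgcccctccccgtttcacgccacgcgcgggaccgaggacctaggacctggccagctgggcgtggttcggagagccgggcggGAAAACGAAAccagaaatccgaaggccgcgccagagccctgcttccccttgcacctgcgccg
ISG15: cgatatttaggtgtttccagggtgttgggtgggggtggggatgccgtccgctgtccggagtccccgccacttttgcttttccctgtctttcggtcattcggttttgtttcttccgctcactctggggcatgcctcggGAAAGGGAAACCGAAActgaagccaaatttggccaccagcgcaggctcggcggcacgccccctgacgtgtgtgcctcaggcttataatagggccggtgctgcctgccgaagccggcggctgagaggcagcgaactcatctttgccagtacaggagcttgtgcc
DTX3L: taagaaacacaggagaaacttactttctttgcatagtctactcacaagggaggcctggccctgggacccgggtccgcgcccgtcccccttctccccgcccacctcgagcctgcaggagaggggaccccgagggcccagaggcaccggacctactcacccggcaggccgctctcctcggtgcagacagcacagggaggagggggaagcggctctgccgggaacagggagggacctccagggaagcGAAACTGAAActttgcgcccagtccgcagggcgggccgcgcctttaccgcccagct
IFITM1: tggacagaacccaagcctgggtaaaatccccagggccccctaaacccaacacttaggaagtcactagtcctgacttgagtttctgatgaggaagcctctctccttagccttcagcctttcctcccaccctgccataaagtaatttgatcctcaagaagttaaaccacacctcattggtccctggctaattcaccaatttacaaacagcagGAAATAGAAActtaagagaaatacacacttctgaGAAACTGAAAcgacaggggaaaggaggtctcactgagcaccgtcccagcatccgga
BST2: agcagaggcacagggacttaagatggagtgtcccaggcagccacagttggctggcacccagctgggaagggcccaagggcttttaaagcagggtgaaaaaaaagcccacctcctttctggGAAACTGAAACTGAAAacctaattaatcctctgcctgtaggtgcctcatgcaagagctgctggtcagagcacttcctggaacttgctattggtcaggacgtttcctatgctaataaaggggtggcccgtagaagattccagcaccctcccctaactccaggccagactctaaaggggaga

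The OAS3 window held 2 ISRE cores, which began at -143 and -12 from the start, and the ISG15 window held 2 that began at -113 and -107. The IFITM1 cores began at -40 and -6 and the BST2 cores at -130 and -124. The DTX3L core began at -6. The PARP9 window, on the opposite strand, shares 137 bases with the DTX3L window, and the same core lies there at -41 from the PARP9 start. Most tested members had negative values whether or not a core was found, where 51.5% of all tested genes were negative. The log2 fold change was negative for 13 of the 17 tested members with a core, whose values ran from -1.02 (OAS3) to 0.62 (IFITM1) with a median of -0.27. It was negative for 5 of the 6 with a window but no core (OAS1, HERC6, RIGI, STAT2, IRF1 and IFI35), whose median was -0.54. Of the 5 tested members without a window, 4 were negative, and the median was -0.23. IFIT3 in the first set, HERC6 in the second and OASL and USP18 in the last reached the level tested only through sicontrol.

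**Figure D2:**
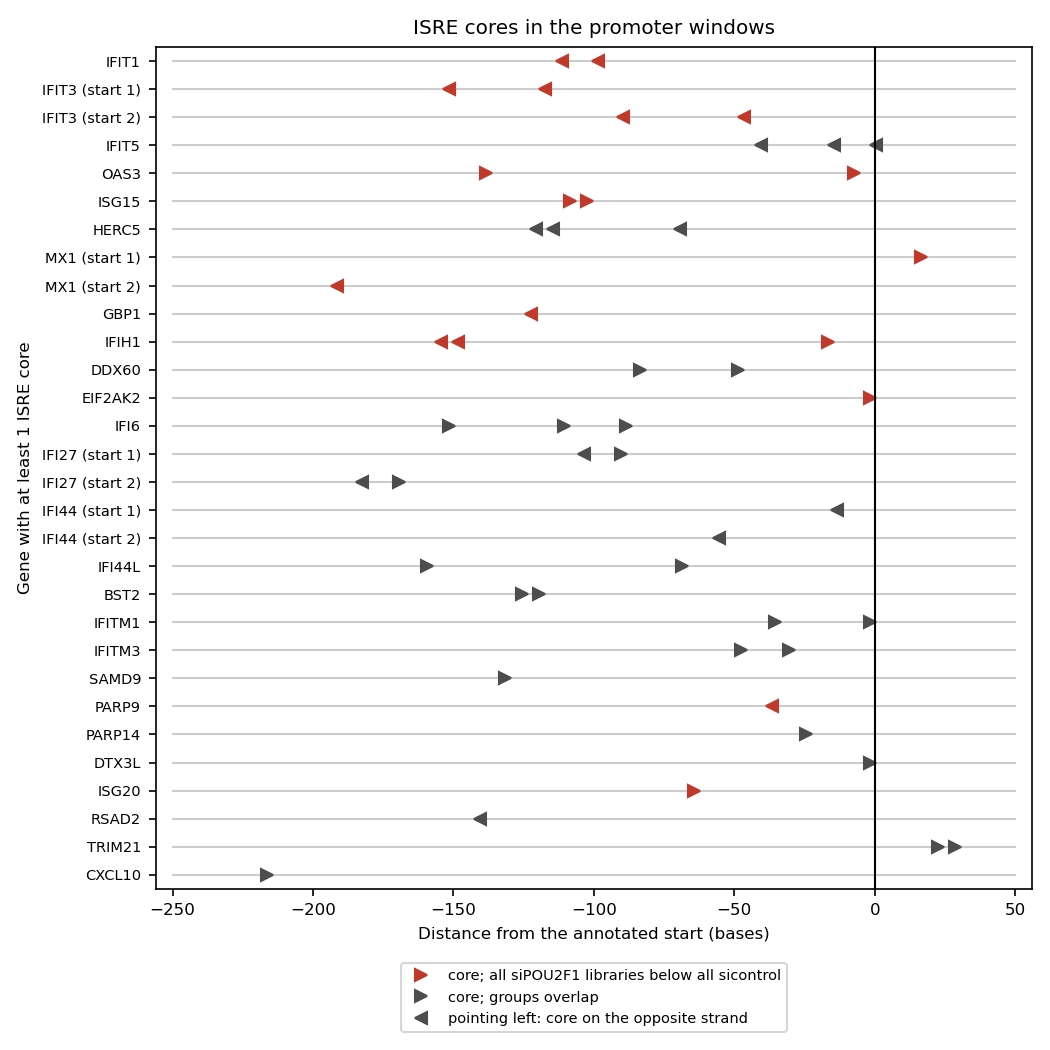
Positions of ISRE cores (x axis, bases from the annotated start) in the promoter windows of the 26 interferon-stimulated genes that held at least 1, with 1 line per window. Arrows point along the strand of the core, and red marks genes whose 3 siPOU2F1 libraries all lay below the 3 sicontrol libraries, among them OAS3 and ISG15.

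The genes covered a wide range of levels in both groups. FPKM is scaled by length, so levels can be set beside each other. The highest were IFITM3 and IFITM2, with means of 139 ± 35.7 and 134 ± 26.8 FPKM in siPOU2F1 and 127 ± 28.8 and 121 ± 10.4 FPKM in sicontrol (SD, n = 3 each). These paralogs did not differ from each other beyond their spread. ISG15 came next with 54.4 ± 6.25 FPKM in siPOU2F1 and 79.0 ± 9.07 FPKM in sicontrol. By the mean of all 6 libraries IRF1 followed, with 36.4 ± 16.0 FPKM in siPOU2F1 and 64.9 ± 9.13 FPKM in sicontrol (SD, n = 3 each), although in siPOU2F1 alone IFITM1 had a mean of 37.2 FPKM. At the other end, IFI44L, an interferon-induced gene of unsettled function, was listed at 0 in all 6 libraries. CXCL10, a chemokine that draws T cells, was listed at 0 in every library but sicontrol replicate 3, where it had 0.0505 FPKM.

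**Figure D3:**
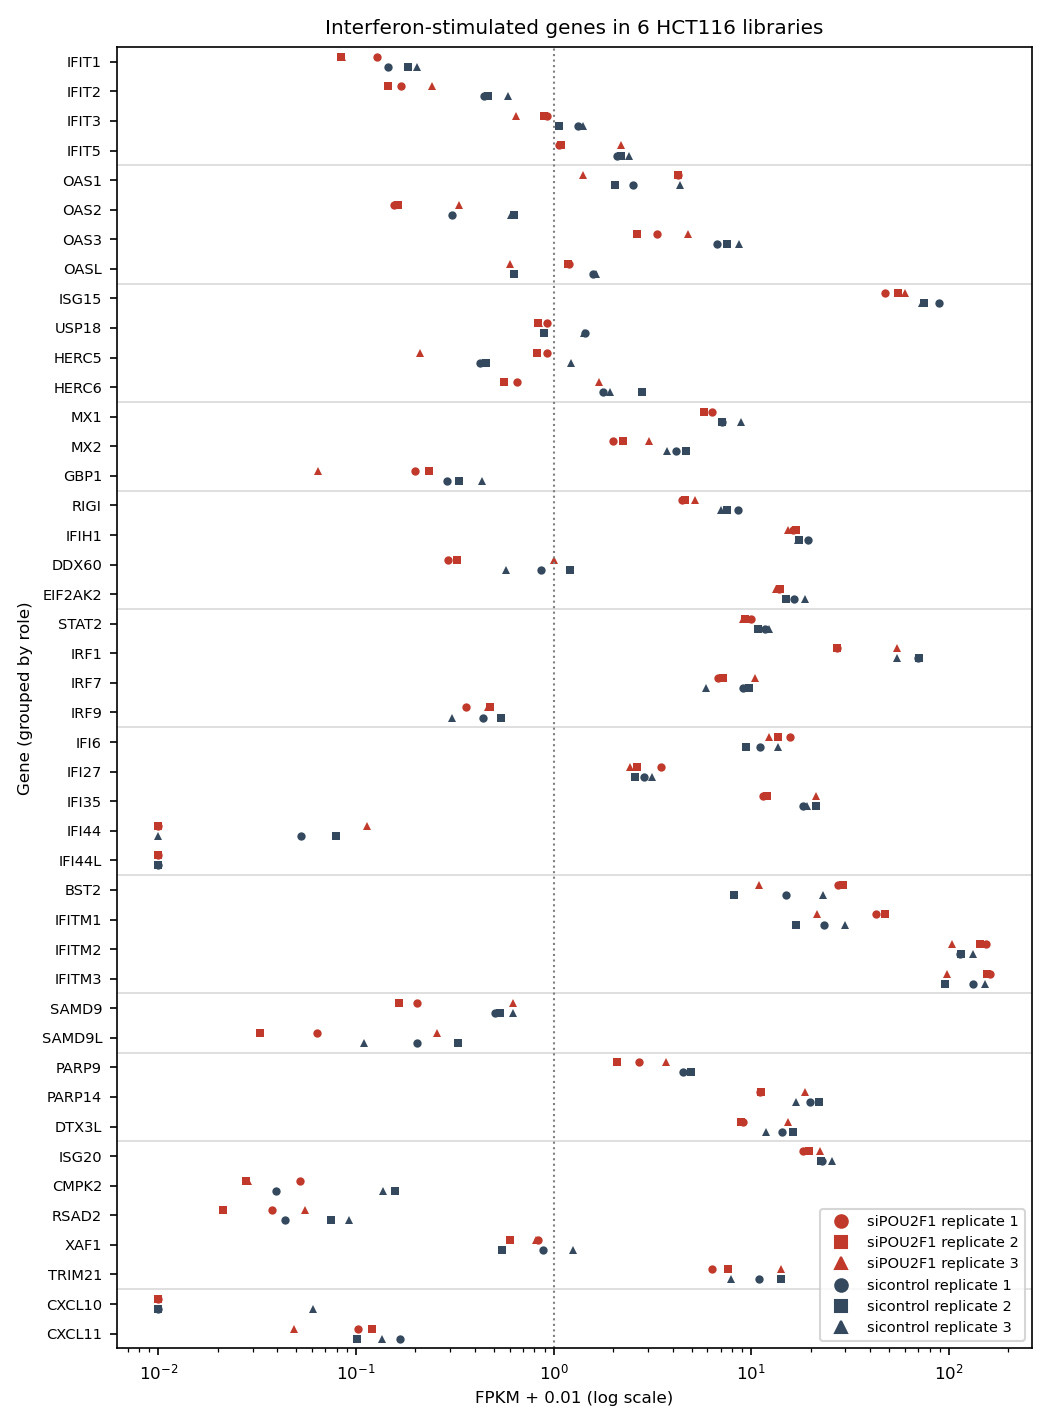
FPKM + 0.01 on a log axis (x axis) for the 44 interferon-stimulated genes, grouped by role, with siPOU2F1 libraries in red above sicontrol libraries in dark blue and a marker shape per replicate. The dotted line stands at 1 FPKM, values of 0 plot at 0.01, and levels run from IFI44L at 0 to IFITM3, whose lowest library has 95.6 FPKM.

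The interferon-inducible RNA sensors were RIGI and IFIH1, helicases that signal through MAVS. RIGI (ENSG00000107201, chromosome 9, 32455705 to 32526324, minus strand, GRCh38) measured 4.48, 4.60 and 5.16 FPKM in siPOU2F1 replicates 1 to 3, against 8.54, 7.54 and 7.01 FPKM in sicontrol replicates 1 to 3. Every siPOU2F1 library was below every sicontrol library, and the siPOU2F1 mean was 61.6% of the sicontrol mean. Its log2 fold change of -0.64 (SE 0.13) had the lowest p among the members (limma, adjusted p = 0.0744). Without siPOU2F1 replicate 3 it was -0.70 (adjusted p = 0.0155). IFIH1, also called MDA5, measured 16.2, 16.8 and 15.4 FPKM in siPOU2F1, against 19.4, 17.4 and 17.2 FPKM in sicontrol. Its groups did not overlap either, but the log2 fold change was -0.15, with a 95% confidence interval from -0.40 to 0.10. EIF2AK2, or PKR, the kinase that stops translation on double-stranded RNA, had 13.8, 13.9 and 13.4 FPKM in siPOU2F1 and 16.5, 15.0 and 18.7 FPKM in sicontrol, a log2 fold change of -0.27 (limma, adjusted p = 0.282). DDX60, a helicase linked to RIGI signalling, averaged 0.529 ± 0.399 FPKM in siPOU2F1 and 0.876 ± 0.322 FPKM in sicontrol (SD, n = 3 each), and was not tested.

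The oligoadenylate synthetases make the messenger that activates RNase L, and 3 of the 4 genes were tested. OAS3 (ENSG00000111331, chromosome 12, 112938352 to 112973249, plus strand, GRCh38) measured 3.31, 2.65 and 4.77 FPKM in siPOU2F1, against 6.69, 7.55 and 8.63 FPKM in sicontrol. All 3 siPOU2F1 libraries were the lower ones, with a mean at 46.9% of sicontrol. This is a log2 fold change of -1.02 (SE 0.21; limma, adjusted p = 0.0758), and it was -1.22 without siPOU2F1 replicate 3 (adjusted p = 0.00772). OAS1, its neighbour upstream at 112906777 to 112933222 on the same strand, had 4.26, 4.23 and 1.40 FPKM in siPOU2F1 and 2.52, 2.03 and 4.36 FPKM in sicontrol. Those groups overlapped widely, and the log2 fold change of 0.07 had a 95% confidence interval from -0.91 to 1.05. OAS2, the next gene of this cluster, had 0.145, 0.153 and 0.320 FPKM in siPOU2F1 and 0.296, 0.618 and 0.599 FPKM in sicontrol, below the level tested. OASL, a relative without the synthetase activity and on another part of chromosome 12, had a log2 fold change of -0.23 (limma, adjusted p = 0.707).

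ISG15 is a ubiquitin-like protein that is joined to other proteins and also secreted. It measured 47.7, 55.2 and 60.2 FPKM in siPOU2F1, against 89.4, 74.9 and 72.8 FPKM in sicontrol, with no overlap. Its log2 fold change was -0.54 (SE 0.13, limma, adjusted p = 0.111), and it was called without siPOU2F1 replicate 3 (-0.61, adjusted p = 0.02). HERC6, a ligase related to the main human ISG15 ligase HERC5, had 0.645, 0.549 and 1.69 FPKM in siPOU2F1 and 1.77, 2.79 and 1.91 FPKM in sicontrol. Replicates 1 and 2 of siPOU2F1 were far below sicontrol and replicate 3 just below it. HERC6 had a log2 fold change of -0.92 (SE 0.32, limma, adjusted p = 0.205). HERC5 itself averaged 0.641 ± 0.384 FPKM in siPOU2F1 and 0.690 ± 0.452 FPKM in sicontrol (SD, n = 3 each) and was not tested. USP18, which removes ISG15 and restrains the interferon receptor, had a log2 fold change of -0.34 (limma, adjusted p = 0.387).

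The IFIT proteins bind viral RNA that lacks the marks of host mRNA, and their 4 genes lie in 1 cluster on chromosome 10. IFIT3 measured 0.920, 0.887 and 0.637 FPKM in siPOU2F1 and 1.32, 1.06 and 1.40 FPKM in sicontrol, with a log2 fold change of -0.42 (limma, adjusted p = 0.302). IFIT2 and IFIT1, both below the level tested, likewise had every siPOU2F1 library under every sicontrol library. IFIT2 had 0.159, 0.136 and 0.232 FPKM in siPOU2F1 and 0.433, 0.455 and 0.580 FPKM in sicontrol. IFIT1 had at most 0.118 FPKM in siPOU2F1 and at least 0.135 FPKM in sicontrol. IFIT5 departed from the others, since siPOU2F1 replicate 3 (2.2 FPKM) stood within the sicontrol range of 2.08 to 2.40 FPKM while replicates 1 and 2 had 1.05 and 1.08 FPKM.

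The MX proteins are GTPases that trap viral capsids and nucleoproteins, and MX2 and MX1 are neighbours on chromosome 21. MX2 measured 1.98, 2.24 and 3.03 FPKM in siPOU2F1, against 4.15, 4.66 and 3.75 FPKM in sicontrol. No siPOU2F1 library reached the sicontrol range, and the log2 fold change was -0.70 (SE 0.18, limma, adjusted p = 0.126, and 0.0143 without siPOU2F1 replicate 3). MX1 had 6.30, 5.74 and 5.75 FPKM in siPOU2F1 and 7.11, 7.13 and 8.84 FPKM in sicontrol. Its groups were apart as well, by less, with a log2 fold change of -0.34 (limma, adjusted p = 0.242). GBP1, a guanylate-binding GTPase and marker of the interferon gamma response, had 0.188, 0.224 and 0.0544 FPKM in siPOU2F1 and 0.279, 0.323 and 0.422 FPKM in sicontrol, too low to be tested.

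The transcription factors of the pathway did not move as 1 group. IRF1 (ENSG00000125347, chromosome 5, 132481609 to 132490798, minus strand, GRCh38), which is induced by interferon gamma and drives antiviral genes, measured 27.1, 27.3 and 54.9 FPKM in siPOU2F1, against 69.8, 70.6 and 54.4 FPKM in sicontrol. The siPOU2F1 replicates 1 and 2 were well below all sicontrol libraries, whereas replicate 3 was level with sicontrol replicate 3. For IRF1 the log2 fold change was -0.90 (SE 0.28, limma, adjusted p = 0.172), and -1.23 without siPOU2F1 replicate 3 (adjusted p = 0.00575). IRF1 shares 22.0% of its exonic bases with C5orf56 on the opposite strand. The library kit was directional per the labels, but no source used here gives the strand setting of the counting. STAT2, which works with IRF9 at the ISRE, had 9.92, 9.35 and 9.09 FPKM in siPOU2F1 and 11.8, 10.8 and 12.3 FPKM in sicontrol. Its difference was small and alike in all 3 siPOU2F1 libraries, with a log2 fold change of -0.28 and a 95% confidence interval from -0.54 to -0.02 (limma, adjusted p = 0.249). IRF7, which amplifies interferon production, had a log2 fold change of -0.02 (limma, adjusted p = 0.97), with values from 6.75 to 10.4 FPKM in siPOU2F1 and from 5.93 to 9.76 FPKM in sicontrol. IRF9 was listed at 0.425 ± 0.0653 FPKM in siPOU2F1 and 0.420 ± 0.119 FPKM in sicontrol (SD, n = 3 each). It shares 48.4% of its exonic bases with AL136295.5 on the same strand, whose mean was 2.49 FPKM, so its level is uncertain.

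PARP9, DTX3L and PARP14 lie near each other on chromosome 3, and PARP9 forms a complex with the ubiquitin ligase DTX3L. PARP9 measured 2.69, 2.09 and 3.72 FPKM in siPOU2F1, against 4.50, 4.94 and 4.94 FPKM in sicontrol. The groups were apart, and the log2 fold change was -0.70 (SE 0.20, limma, adjusted p = 0.15). PARP14, a mono-ADP-ribosyltransferase, had 11.03, 11.2 and 18.6 FPKM in siPOU2F1 and 19.9, 22.0 and 16.9 FPKM in sicontrol. DTX3L had 9.10, 8.89 and 15.4 FPKM in siPOU2F1 and 14.3, 16.3 and 11.9 FPKM in sicontrol. For both, siPOU2F1 replicates 1 and 2 were below all sicontrol libraries and replicate 3 was among them. The log2 fold changes were -0.54 for PARP14 and -0.37 for DTX3L (limma, adjusted p = 0.26 and 0.408). Without siPOU2F1 replicate 3 they were -0.78 and -0.62 (adjusted p = 0.013 and 0.0289).

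The membrane proteins had values on the other side. IFITM1, IFITM2 and IFITM3 block the fusion of viruses with the cell, and BST2, or tetherin, holds budding virions at the surface. IFITM1 measured 43.0, 47.3 and 21.5 FPKM in siPOU2F1, against 23.2, 16.8 and 29.9 FPKM in sicontrol. BST2 measured 27.4, 29.1 and 11.0 FPKM in siPOU2F1, against 15.0, 8.14 and 23.1 FPKM in sicontrol. In both genes siPOU2F1 replicates 1 and 2 were the highest of the 6 libraries, and siPOU2F1 replicate 3 lay inside the sicontrol range, an order that KRT8 shared. IFITM2 had 155, 144 and 104 FPKM in siPOU2F1 and 114, 115 and 133 FPKM in sicontrol. IFITM3 had 162, 157 and 97.9 FPKM in siPOU2F1 and 132, 95.6 and 152 FPKM in sicontrol. The same arrangement held for these paralogs, except that siPOU2F1 replicate 3 was the lowest library for IFITM2. Log2 fold changes were 0.62 for IFITM1, 0.53 for BST2, 0.14 for IFITM2 and 0.12 for IFITM3 (limma, adjusted p from 0.351 to 0.794). Without siPOU2F1 replicate 3 the value of IFITM1 was 0.97 and was called (adjusted p = 0.0261), while BST2 had 0.97 with an adjusted p of 0.0984. In the annotation IFITM1 shares 32.5% of its exonic bases with IFITM2 on the same strand and IFITM3 shares 21.3% with AC136475.5 on the opposite strand, so reads of this cluster cannot be assigned with certainty.

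The remaining effectors were mixed, and none of those tested was called in the fit of all 6 libraries. IFI35, a partner of NMI, measured 11.5, 12.04 and 21.3 FPKM in siPOU2F1 and 18.3, 21.2 and 19.1 FPKM in sicontrol, and TRIM21, an intracellular antibody receptor, had 6.32, 7.65 and 14.2 FPKM in siPOU2F1 and 10.9, 14.2 and 7.92 FPKM in sicontrol. For both genes siPOU2F1 replicates 1 and 2 were the lowest and replicate 3 narrowly the highest library. Without siPOU2F1 replicate 3, IFI35 had a log2 fold change of -0.71 and was called, and TRIM21 had -0.59 and was not (limma, adjusted p = 0.0109 and 0.105). ISG20, an exonuclease, had a log2 fold change of -0.23 with its groups apart, IFI6 had 0.28, and IFI27 had -0.01 (limma, adjusted p from 0.333 to 0.98). IFI6 and IFI27 encode small mitochondrial proteins. Of the 16 members below the level tested, 15 were above 0 in some library. Of these 15, 14 had the lower mean in siPOU2F1 (93.3%), as did 55.3% of the 5534 annotated genes with a mean above 0 and below 1 FPKM. All siPOU2F1 libraries were under all sicontrol libraries for 3 of the 15 (20%), IFIT1, IFIT2 and GBP1, against 6.52% of those genes. SAMD9 and SAMD9L, related antiviral factors, had 0.322 ± 0.256 and 0.108 ± 0.122 FPKM in siPOU2F1 and 0.543 ± 0.0597 and 0.205 ± 0.110 FPKM in sicontrol (SD, n = 3 each). In siPOU2F1 replicate 3, SAMD9 was above all sicontrol libraries and SAMD9L was within their range. CMPK2 and RSAD2, the neighbouring genes of a nucleotide kinase and the antiviral enzyme viperin, averaged 0.0262 and 0.0280 FPKM in siPOU2F1 and 0.101 and 0.0604 FPKM in sicontrol. CXCL11 had 0.0804 and 0.124 FPKM in siPOU2F1 and sicontrol, and IFI44 was listed at 0 in 3 of 6 libraries. XAF1, a proapoptotic protein, averaged 0.740 ± 0.131 FPKM in siPOU2F1 and 0.885 ± 0.354 FPKM in sicontrol (SD, n = 3 each).

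Sorted by library, the tested members fell into several arrangements. In 12 all siPOU2F1 libraries were below sicontrol, namely IFIT3, OAS3, ISG15, HERC6, MX1, MX2, RIGI, IFIH1, EIF2AK2, STAT2, PARP9 and ISG20. In 6 more, siPOU2F1 replicates 1 and 2 were below and replicate 3 was not (IFIT5, IRF1, IFI35, PARP14, DTX3L and TRIM21). In 4, BST2 and the IFITM genes, replicates 1 and 2 were above and replicate 3 was not. Replicates 1 and 2 were thus both below sicontrol for 18 of 28 members (64.3%, against 35.0% of all tested genes) and both above for 4 (14.3%, against 27.6%). Replicate 3 was below all sicontrol libraries for 17 of 28 members (60.7%, against 23.9% of all tested genes). It was above all of them for 3, IRF7, IFI35 and TRIM21 (10.7%, against 33.4%). The median difference from the sicontrol mean over the 28 members was -0.29, -0.36 and -0.28 in siPOU2F1 replicates 1 to 3 on the log2 scale. Over all tested genes that median was -0.04, -0.03 and 0.04. In sicontrol replicates 1 to 3 the median over the members was 0.02, -0.06 and 0.10. The difference was negative for 21, 22 and 23 members in siPOU2F1 replicates 1 to 3 and for 12, 19 and 11 in sicontrol replicates 1 to 3. The list as a whole therefore stood about as low in replicate 3 as in the others, although OAS1, OASL, USP18, IFI27 and IFITM2 were below sicontrol in replicate 3 and not in both of the others.

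**Figure D4:**
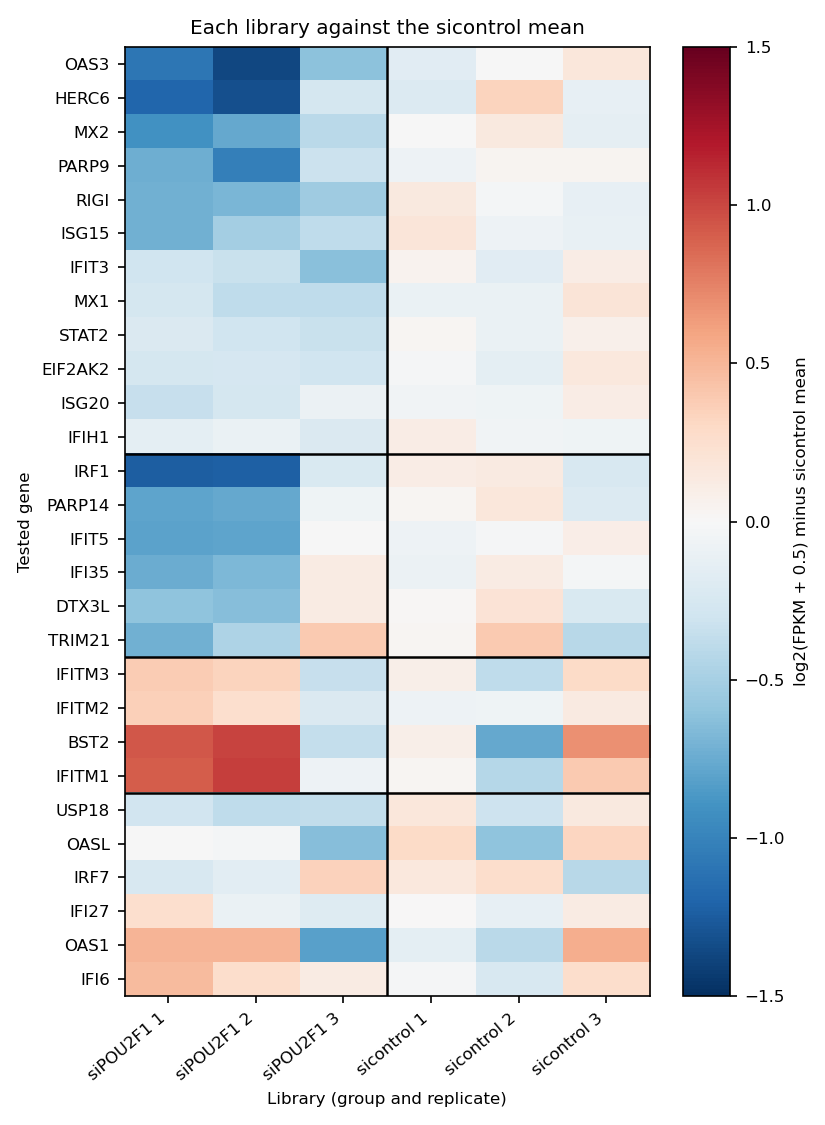
Difference of log2(FPKM + 0.5) from the sicontrol mean for the 28 tested interferon-stimulated genes (rows) in each library (columns, siPOU2F1 left of sicontrol), blue for lower and red for higher. Lines part the 12 genes low in all siPOU2F1 libraries, the 6 low in siPOU2F1 replicates 1 and 2 but not 3, the 4 high in replicates 1 and 2 but not 3, and the other 6.

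Other genes of the pathway were examined in 5 lists, also chosen with earlier results of these data known. Of 10 interferon genes none reached the level tested, and IFNA1, IFNA2, IFNG, IFNK, IFNL2, IFNL3 and IFNW1 were listed at 0 in all 6 libraries. IFNB1, the first interferon most cells make, had 0.103 FPKM in sicontrol replicate 2 and was listed at 0 elsewhere. IFNE, the epithelial interferon epsilon, was the most abundant with 0.269 ± 0.200 FPKM in siPOU2F1 and 0.471 ± 0.251 FPKM in sicontrol (SD, n = 3 each). All 9 genes of receptors and kinases were tested, and 0 were called in either direction (limma). At an unadjusted p under 0.05, 1 had lower and 1 had higher values in siPOU2F1 (11.1% each, against 9.90% and 8.22% of all tested genes). IFNAR1 was called lower and IFNLR1 higher without siPOU2F1 replicate 3 (limma, adjusted p = 0.0129 and 0.039). Each is 1 of 9 genes (11.1%), against 15.7% of all tested genes called lower and 9.29% called higher in that fit. IFNAR1, a chain of the type I receptor, measured 21.7, 23.3 and 27.6 FPKM in siPOU2F1, against 37.0, 37.5 and 32.0 FPKM in sicontrol, with a log2 fold change of -0.55 (limma, adjusted p = 0.103). Its groups did not overlap. IFNGR1, the binding chain of the interferon gamma receptor, was on the other side, with 25.4, 26.7 and 23.4 FPKM in siPOU2F1 and 22.7, 19.7 and 20.3 FPKM in sicontrol (0.26, adjusted p = 0.268). IFNLR1, the specific chain of the type III receptor, had 4.78, 4.78 and 3.22 FPKM in siPOU2F1 and 3.49, 2.92 and 3.303 FPKM in sicontrol. There siPOU2F1 replicate 3 lay within the sicontrol range and the other siPOU2F1 libraries above it (0.33, adjusted p = 0.361).

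Among 11 genes that sense nucleic acid or relay the signal, 8 were tested and 0 were called in either direction (limma), with 3 lower (37.5%, against 9.90% of all tested genes) and 0 higher at an unadjusted p under 0.05. Leaving out siPOU2F1 replicate 3, limma called 4 of the 8 lower (50%, against 15.7%), namely STING1, IKBKE, IRF3 and TRIM25. TRIM25, a ligase linked to RIGI activation, had means of 29.1 ± 6.75 FPKM in siPOU2F1 and 46.2 ± 6.92 FPKM in sicontrol (SD, n = 3 each), and its log2 fold change was -0.67 (limma, adjusted p = 0.138). IKBKE, a kinase of IRF3, had -0.68 and IRF3 itself -0.42 (limma, adjusted p = 0.22 and 0.231). In both of these, siPOU2F1 replicate 3 stood within the sicontrol range. Of 8 inhibitors, all were tested and 0 were called in either direction, with 2 lower (25.0%, against 9.90%) and 0 higher at an unadjusted p under 0.05 (limma). Without siPOU2F1 replicate 3, limma called 1 of the 8 lower (12.5%, against 15.7% of all tested genes), SOCS3 (adjusted p = 0.0432), and 0 higher. The phosphatase PTPN2 had a log2 fold change of -0.47, the feedback inhibitor SOCS3 -0.38 and the phosphatase PTPN11 0.19 (limma, adjusted p from 0.2 to 0.321). Of 30 further interferon-induced genes, 25 were tested and 0 were called in either direction (limma), with 7 lower (28.0%, against 9.90%) and 0 higher at an unadjusted p under 0.05. Without siPOU2F1 replicate 3, 7 of the 25 were called lower (28.0%, against 15.7%) and 1 higher (4%, against 9.29%). The 7 were ZNFX1, NMI, GBP3, SLFN5, LAMP3, PARP12 and APOL6, and the 1 was PML. GBP3, a relative of GBP1, measured 7.38, 7.36 and 10.6 FPKM in siPOU2F1, against 14.3, 15.4 and 13.7 FPKM in sicontrol, without overlap (-0.76, adjusted p = 0.082). APOL6, an apolipoprotein L, had -0.63, and the helicase-like sensor ZNFX1 had -0.71 (limma, adjusted p = 0.109 and 0.206). The log2 fold change was negative for 20 of these 25 genes (80.0%, against 51.5% of all tested genes), with a median of -0.19. In the sensing and relay list it was negative for 6 of 8 (75.0%, median -0.32). Among receptors and kinases it was negative for 4 of 9 (44.4%, median 0.01), and among inhibitors for 3 of 8 (37.5%, median 0.07).

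**Figure D5:**
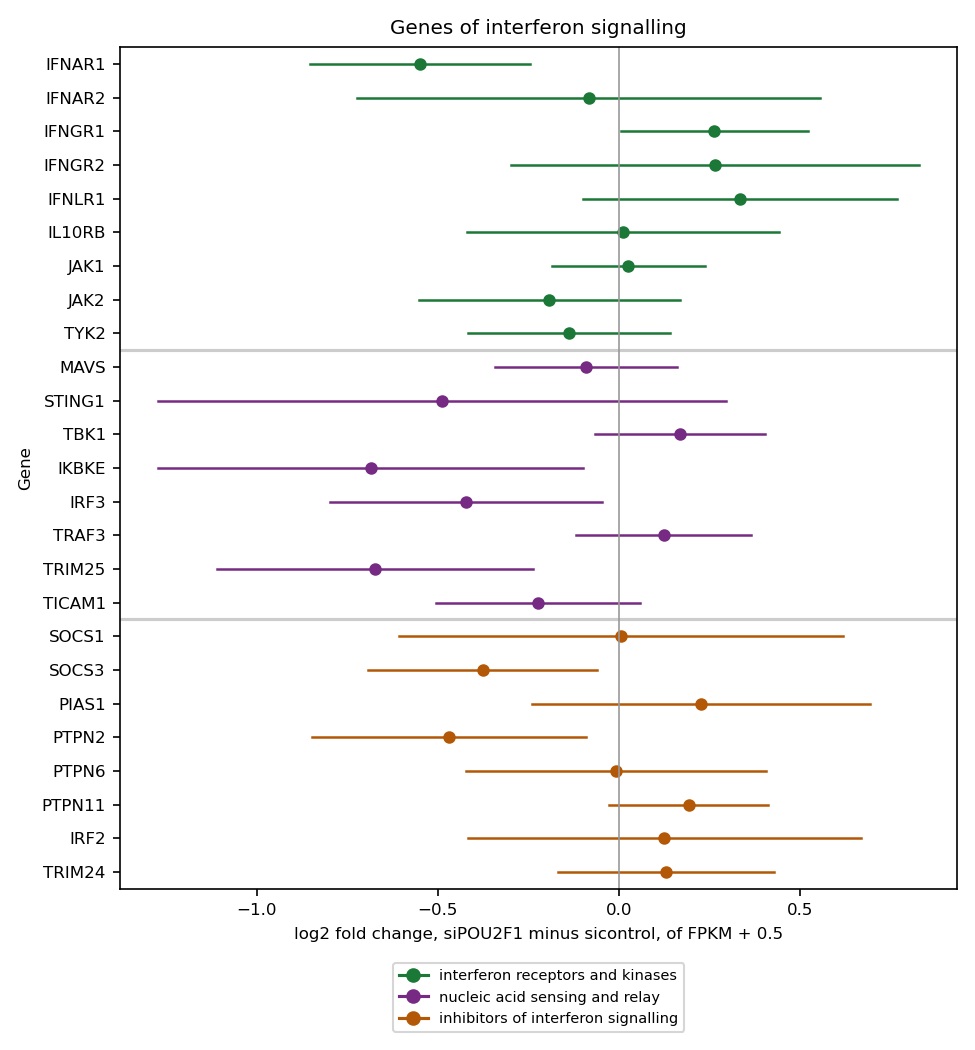
Log2 fold changes with 95% confidence intervals (x axis, siPOU2F1 minus sicontrol, of FPKM + 0.5) of the tested receptors and kinases (green), sensing and relay genes (purple) and inhibitors (orange). IFNAR1 lies at -0.55 and TRIM25 at -0.67, and none of the 25 genes was called.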

How the data were processed

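Each library came as 1 deposited table of FPKM values made by the authors. HISAT2 (2.0.4), Bowtie2 (2.2.5) and StringTie (2.1.2) on hg38 appear in the submitters' processing notes, without roles. The annotation release, filters and strand setting are not stated in the labels used here. Values were used as deposited. Annotated genes averaging at least 1 FPKM were compared as log2(FPKM + 0.5) in limma (3.58.1, R 4.3.3). The fit had group alone as a term and a trend of variance on mean, and p-values were adjusted by Benjamini-Hochberg over 11831 genes. The log2(FPKM + 0.5) scale understates the change of low genes. Calls needed an adjusted p under 0.05. Relative depth is the inverse of the most common ratio of values under 0.1 FPKM to those of sicontrol replicate 1. Only 12 to 23 of the 811 to 971 genes compared shared that ratio, so the depth is a rough estimate. Library-by-library values are given for the 12 members with the lowest p, the 4 with the highest mean and POU2F1, and values of pathway genes for up to 3 with the lowest p in a list, with genes called without siPOU2F1 replicate 3 also named. Other genes with such values were chosen after their values were seen. The members and lists were chosen with earlier results of these data known. Of the pathway lists only counts and the named genes are given, and a gene left out of those counts is not reported here. Gene positions and exonic overlaps came from GENCODE 29 (GRCh38), and promoter windows from RefSeq (GRCh38.p14). Alternatives were other pseudocounts, filters and scalings, library weights, a replicate block and leaving out each library. Tables and plots used Python 3.11.15 with pandas 2.3.3, matplotlib 3.10.9 and scipy 1.17.1.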

Additional observations from a re-analysis of the deposited data

How the results depend on the processing

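The median log2 fold change of the tested interferon-stimulated genes stayed between -0.36 and -0.26 under all 14 alternatives. The count of called members was 0 in both directions in 12 of the 14. Library weights gave siPOU2F1 replicate 3 a weight of 0.145 and siPOU2F1 replicate 2 a weight of 3.819. With them limma called 18 of the 28 tested members lower and 5 higher. The same fit called 3312 of all 11831 tested genes lower and 2651 higher. Leaving out 1 library at a time gave 0 to 11 members lower and 0 to 1 higher. Over all genes, the main fit called 100 lower and 47 higher. Those counts were 48 and 24 with no filter on low values, and 0 to 1855 and 0 to 1099 when 1 library was left out. With the replicate block they were 0 and 0, but same-numbered libraries did not deviate together (r = 0.133, -0.545 and -0.512 over tested genes), so the numbers do not pair them. POU2F1 had -0.99 both with no filter and with the replicate block and was then not called (adjusted p = 0.065 and 0.297), and it had -1.06 to -0.95 when 1 library was left out. Uncalled members near 0 changed sign. IRF7 had 0.033 and IFI27 0.024 after quantile normalization, and IFI27 had 0.009 with equal library medians. When 1 library was left out, OAS1 ranged from -0.15 to 0.51, IRF7 from -0.23 to 0.11, IFI27 from -0.141 to 0.081 and IFITM3 from -0.067 to 0.357. The cause of these changes was not tested. Depth is known only relative to sicontrol replicate 1, which limits what can be said of the 16 members under 1 FPKM.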
